A study of Mus musculus with 13 samples.

Results

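The 10 genes described here encode transcription factors of squamous identity and differentiation: Trp63, Sox2, Pitx1, Klf4, Klf5, Grhl3, Ovol1, Zfp750, Prdm1 and Gata3. They were taken by name from the 24972 genes of the authors' deposited table, and each name occurred there once. The factors and the gene lists used below were chosen with earlier results of these data known. PolyA RNA of mouse tongue epithelia was compared between 6 samples of genotype Krt14-Cre(+); LSL-H3K36M, called H3K36M, and 7 samples of genotype Krt14-Cre(-); LSL-H3K36M, called control. H3K36M is a histone H3 with methionine in place of lysine 36, which acts as a dominant inhibitor of methylation at that residue, and both groups carried its Cre-inducible allele. Krt14-Cre is active in basal cells of stratified epithelia and in what descends from them. Cre was present in every H3K36M sample and in no control sample, so an effect of Cre itself and one of the mutant histone cannot be told apart. The sources used here do not give age, sex or litter.

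In stratified epithelium, p63 (encoded by Trp63) maintains the proliferative basal layer and switches on the squamous keratins. As cells leave that layer, KLF4, GRHL3, OVOL1, ZFP750 (the mouse counterpart of human ZNF750) and PRDM1 (also called Blimp-1) take part in growth arrest, cell adhesion and barrier formation. SOX2 and PITX1 mark oral and tongue epithelium and are known to act together with p63 in mouse squamous carcinoma, KLF5 is a factor of proliferating epithelial cells, and GATA3 acts in epidermis and hair follicle as well as in T lymphocytes.

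None of the 10 factors differed between H3K36M and control at an adjusted p below 0.05 in the authors' deposited table (DESeq2, 10 tested, 0 higher and 0 lower). Among all 17449 genes tested there, 3.43% were past that threshold, and among the 5237 genes whose mean reached 400 normalised counts, a group that holds 9 of the 10 factors, 2.31% were. At these shares a set of 10 genes without a call is near the background. At an unadjusted p below 0.05 the count was also 0 of 10, against 9.82% of all genes tested. A p that misses the threshold does not show equal levels, so the intervals of the differences are given for each factor. For 6 factors, Trp63, Klf4, Grhl3, Ovol1, Zfp750 and Prdm1, the 95% interval of the log2 fold change lay within a 2-fold difference in either direction. For the other 4, Sox2, Klf5, Pitx1 and Gata3, it reached beyond 2-fold.

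The regions before the start of Klf4, Grhl3 and Gata3 are shown because these genes stood first, second and last among the factors in control level per kb of exon. Of the 10 factors, 5 (Gata3, Grhl3, Klf4, Prdm1 and Sox2) had an entry in the RefSeq promoter table for GRCm38.p6. Each line gives the 250 bases before the start RefSeq gives, on the minus strand, 5′ to 3′, with matches to the GC box GGGCGG on either strand in capitals. They lie at chr4:55532476-55532725 (Klf4), chr4:135573633-135573882 (Grhl3) and chr2:9878601-9878850 (Gata3).
Klf4: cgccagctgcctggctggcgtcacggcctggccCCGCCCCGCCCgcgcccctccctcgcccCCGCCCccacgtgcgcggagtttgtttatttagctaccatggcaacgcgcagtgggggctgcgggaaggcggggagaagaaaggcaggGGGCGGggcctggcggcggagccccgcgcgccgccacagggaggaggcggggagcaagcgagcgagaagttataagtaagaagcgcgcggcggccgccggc
Grhl3: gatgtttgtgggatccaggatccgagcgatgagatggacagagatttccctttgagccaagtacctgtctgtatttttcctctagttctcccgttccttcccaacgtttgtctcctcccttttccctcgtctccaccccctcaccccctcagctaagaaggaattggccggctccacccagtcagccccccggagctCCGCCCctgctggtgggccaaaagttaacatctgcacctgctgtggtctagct
Gata3: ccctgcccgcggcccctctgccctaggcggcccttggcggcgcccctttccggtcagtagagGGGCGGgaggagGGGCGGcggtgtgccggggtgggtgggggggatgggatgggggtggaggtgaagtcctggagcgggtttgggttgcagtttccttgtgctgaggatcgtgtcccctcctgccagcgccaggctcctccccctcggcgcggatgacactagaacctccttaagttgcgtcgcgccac

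GC content was 74.0% for Klf4, 56.0% for Grhl3 and 70.0% for Gata3, against a median of 52.4% over 32851 promoter entries. The Klf4 stretch held 32 CG pairs, that of Gata3 held 19 and that of Grhl3 held 8. The gene with the highest level and the gene with the lowest thus both had GC-rich sequence before the RefSeq start used here. For Gata3 that start lies inside the gene as GENCODE bounds it, so the stretch precedes an inner start only. A GC box occurred 4 times before Klf4, 2 times before Gata3 and 1 time before Grhl3, and 32.7% of all entries held at least 1. The letters CACCC on either strand, the core that KLF factors bind, occurred 3 times before Grhl3 and 3 times before Gata3 and had no match before Klf4, while 52.0% of all entries held them. No CACCC match overlapped a GC box there. None of the 5 stretches held TATAAA on either strand, which 12.4% of all entries did. These matches describe letters only.

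Across their full range, the factors differed far more from each other than between the groups. Levels are the authors' fitted group values in normalised counts (read counts scaled for library depth), divided here by the summed exon length of the gene in kilobases, since a longer transcript yields more reads. That length covers the exons of every annotated transcript, including any not used in this tissue. Values of single samples were not analysed here, because the deposited table holds 1 level per group. Klf4 stood highest, with 1947 normalised counts per kb in control and 1864 in H3K36M. Grhl3 followed with 876 and 861, and Zfp750 with 868 and 1002. Ovol1 stood at 686 in control and 680 in H3K36M, and Trp63 at 587 and 595. These 5 genes, which include the basal regulator p63 and 4 regulators of differentiation, held the first 5 places in both groups. Before division by length, Trp63 (4924 in control) stood above Grhl3 (2443), Zfp750 (2805) and Ovol1 (2393). The place of Trp63 among these 5 therefore depends on the exon length used for it, 8.39 kb. Prdm1 had 367 normalised counts per kb in control and 371 in H3K36M, and Sox2 had 216 and 273. Klf5 stood at 144 and 178, Pitx1 at 142 and 260. Among Sox2, Klf5 and Pitx1, levels in control differed by no more than Pitx1 did between the groups. Gata3 stood far below the rest, with 0.894 normalised counts per kb in control and 1.27 in H3K36M.

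**Figure D1:**
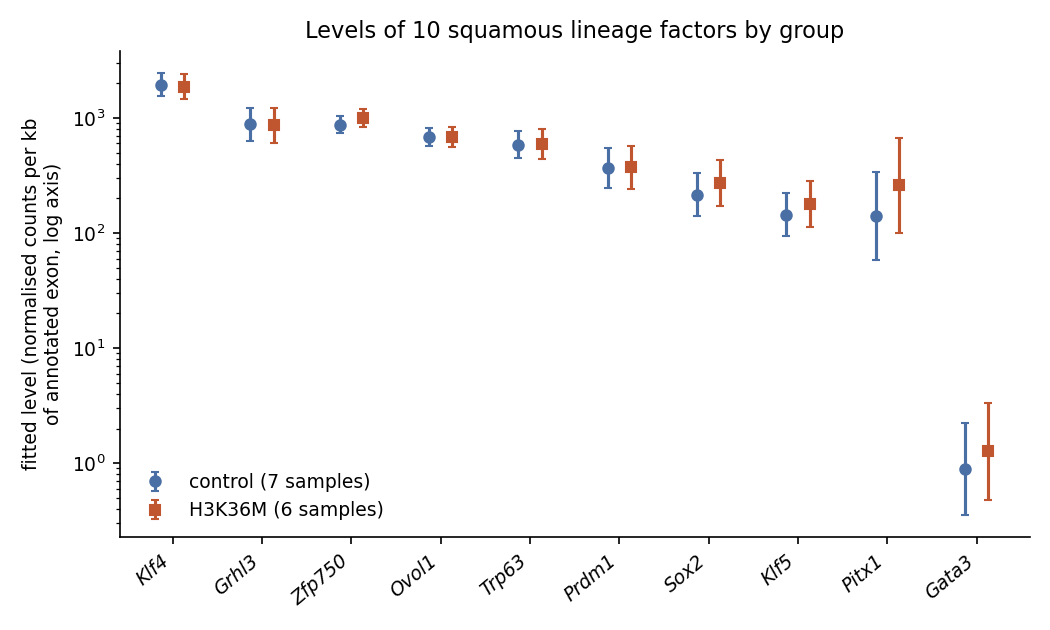
Fitted level of each factor in normalised counts per kb of annotated exon, on a log axis, in control (circles, 7 samples) and H3K36M (squares, 6 samples). Bars are approximate 95% intervals computed from the deposited standard errors. The paired symbols lie close together for most genes and farthest apart for Pitx1, at 142 and 260. Klf4 stands highest at 1947 and 1864, and Gata3 lies near 1.

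The order of the factors was nearly the same in the 2 groups. Of the 10, 6 held the same rank in control and in H3K36M. Grhl3 and Zfp750 changed places at ranks 2 and 3, and Klf5 and Pitx1 at ranks 8 and 9. Approximate 95% intervals of the levels, derived from the deposited standard errors, separated Klf4 from the next gene and Gata3 from all others in both groups. These intervals leave out any uncertainty in the exon length. Of the 9 pairs of neighbours in the control order, 7 had overlapping intervals in control and 6 in H3K36M, where Zfp750 and Ovol1 no longer overlapped. The order of most neighbours is therefore within the error, whereas genes farther apart could separate: in control, the intervals of Grhl3, Zfp750 and Ovol1 all lay above those of Prdm1, Sox2, Klf5 and Pitx1.

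Trp63, the basal regulator, lies on chromosome 16 (25683763 to 25892102, plus strand, GRCm38) and had a fitted level of 4924 normalised counts in control and 4994 in H3K36M in the authors' deposited table. Its log2 fold change there was 0.02 (standard error, SE, 0.30, adjusted p = 0.996). The 95% interval ran from −0.57 to 0.61, or from a fold of 0.674 to one of 1.53. The 2 groups thus differed by less than their error, and any change beyond 1.53-fold upward lay outside the interval. Trp63 has 2 promoters that give proteins with and without an activation domain, and a level of the whole gene does not tell them apart.

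Sox2 lies on chromosome 3 (34650405 to 34652461, plus strand) and had 444 normalised counts in control and 561 in H3K36M in the authors' deposited table, a difference of 0.34 on the log2 scale (SE 0.47, 95% interval −0.58 to 1.25, adjusted p = 0.990). It lies inside Sox2ot, a long noncoding RNA gene on the same strand, which had a mean of 17.1 normalised counts and a log2 fold change of −0.77 (SE 0.45) in that deposited table. How reads in the shared stretch were assigned is not given in the sources used here. Sox2 is also expressed in taste buds and Schwann cells. In the bulk RNA used here, fewer cells of a type and less RNA per cell cannot be told apart, which applies to each value of this report.

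Pitx1, a homeobox factor of oral epithelium and hindlimb on chromosome 13 (55825051 to 55836192, minus strand), had the largest fold change and nearly the largest error. Its fitted level was 376 normalised counts in control and 691 in H3K36M in the authors' deposited table, with a log2 fold change of 0.88 (SE 0.95, adjusted p = 0.990). The 95% interval ran from −0.99 to 2.74, so that a fold anywhere from 0.503 to 6.70 was within the error. The SE was 3.06 times the median of 0.311 over the 4221 genes whose mean lay within 2-fold of its own. For genes of 300 to 1000 normalised counts the 95th percentile of the SE was 0.836, below that of Pitx1. The coefficient of variation between libraries that this SE implies was 1.19. Whether 1 library or several carried this spread was not tested, as the deposited table holds no value of a single library.

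Klf4, on chromosome 4 (55527143 to 55532466, minus strand), promotes growth arrest and barrier formation. It had 5938 normalised counts in control and 5683 in H3K36M in the authors' deposited table, the largest level of the 10 also before division by length. Its log2 fold change was −0.06 (SE 0.25, 95% interval −0.56 to 0.43, adjusted p = 0.991). Klf5, its relative of proliferating cells on chromosome 14 (99298691 to 99315036, plus strand), had 751 and 928 normalised counts there, a log2 fold change of 0.31 (SE 0.46, 95% interval −0.60 to 1.21, adjusted p = 0.990). Neither factor differed beyond its error, and the interval of Klf4 was the narrower one.

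Among the late regulators, Zfp750 and Ovol1 were measured most precisely. Zfp750, a zinc finger factor that drives terminal differentiation in human keratinocytes, on chromosome 11 (121510978 to 121519333, minus strand), had 2805 normalised counts in control and 3240 in H3K36M in the authors' deposited table. Its log2 fold change was 0.21 (SE 0.18, 95% interval −0.15 to 0.57, adjusted p = 0.965), so that an upward change beyond 1.48-fold or a downward one beyond 0.899 of control lay outside the interval. It lies within Tbcd, a protein-coding gene on the opposite strand with a mean of 686 normalised counts and a log2 fold change of −0.00 (SE 0.12) in that deposited table. The library kit keeps strand, but whether the authors counted by strand was not given in the sources used here. Ovol1, a zinc finger repressor that restrains proliferation as keratinocytes differentiate, on chromosome 19 (5549136 to 5560646, minus strand), had 2393 and 2371 normalised counts there, a log2 fold change of −0.01 (SE 0.20, 95% interval −0.40 to 0.38, adjusted p = 0.996).

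Grhl3, a grainyhead factor of the skin barrier on chromosome 4 (135541888 to 135573630, minus strand), had 2443 normalised counts in control and 2401 in H3K36M in the authors' deposited table. The log2 fold change was −0.03 (SE 0.35, 95% interval −0.71 to 0.66, adjusted p = 0.996). Prdm1, a transcriptional repressor that acts in epidermal terminal differentiation, the sebaceous gland and plasma cell formation, on chromosome 10 (44437177 to 44528501, minus strand), had 2047 and 2071 normalised counts there. Its log2 fold change was 0.02 (SE 0.43, 95% interval −0.83 to 0.86, adjusted p = 0.998). Both genes thus had nearly equal fitted levels, with errors that still allow changes of up to 1.58-fold for Grhl3 and 1.82-fold for Prdm1.

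Gata3, on chromosome 2 (9857078 to 9890034, minus strand), was close to undetected in this tissue. Its fitted level was 3.56 normalised counts in control and 5.04 in H3K36M in the authors' deposited table, which sum to about 24.9 over the 7 control samples and 30.2 over the 6 H3K36M samples. The log2 fold change was 0.50 (SE 0.98, 95% interval −1.43 to 2.43, adjusted p = 0.990). No difference beyond the error was seen, and changes of up to 5.39-fold upward were within the interval. On one strand or the other 3 annotated genes overlap Gata3, of which 1 had a mean of 0.571 normalised counts, 1 was at 0 and 1 had no row in the table. Trp63, Pitx1 and Ovol1 each overlap 2 annotated genes without a row in the table.

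**Figure D2:**
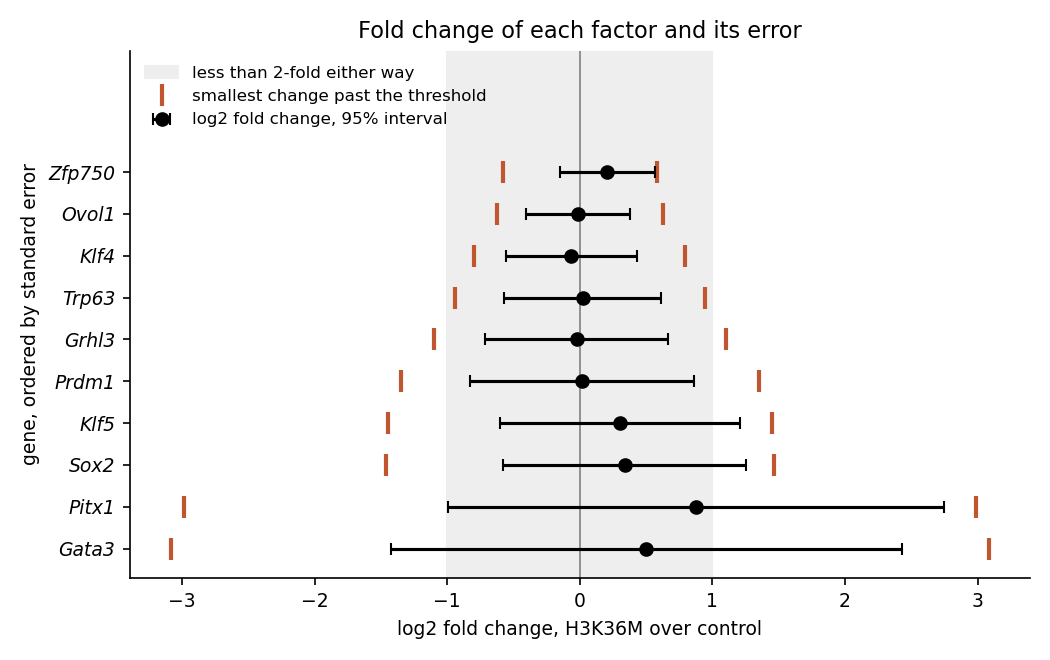
Log2 fold change of each factor (H3K36M over control, points) with its 95% interval (bars), ordered by standard error. Grey marks less than 2-fold either way and orange ticks mark the smallest change that would have passed the threshold at that error, from 0.58 for Zfp750 to 3.09 for Gata3. All 10 intervals include 0 and 6 stay within the grey band.

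The errors set how large a change would have been called. The called gene with the smallest Wald statistic in the authors' deposited table had an absolute value of 3.14, so a factor needed a log2 fold change of 3.14 times its SE. This came to 0.58 for Zfp750, 0.62 for Ovol1, 0.80 for Klf4 and 0.94 for Trp63, each less than a doubling. Grhl3 needed 1.10, Prdm1 1.35, Klf5 1.45 and Sox2 1.46 on the same log2 scale. Pitx1 needed 2.99 and Gata3 3.09, which are changes of 7.93-fold and 8.49-fold. The coefficient of variation between libraries implied by the SE was 0.229 for Zfp750, 0.247 for Ovol1, 0.316 for Klf4, 0.375 for Trp63 and 0.437 for Grhl3. It was higher for the others, at 0.536 for Prdm1, 0.575 for Klf5, 0.580 for Sox2, 1.13 for Gata3 and 1.19 for Pitx1. Compared with genes whose mean was within 2-fold, the SE was below the median for Zfp750 (0.18 against 0.31), Ovol1 (0.20 against 0.31), Klf4 (0.25 against 0.32) and Trp63 (0.30 against 0.32), and above it for the other 6.

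**Figure D3:**
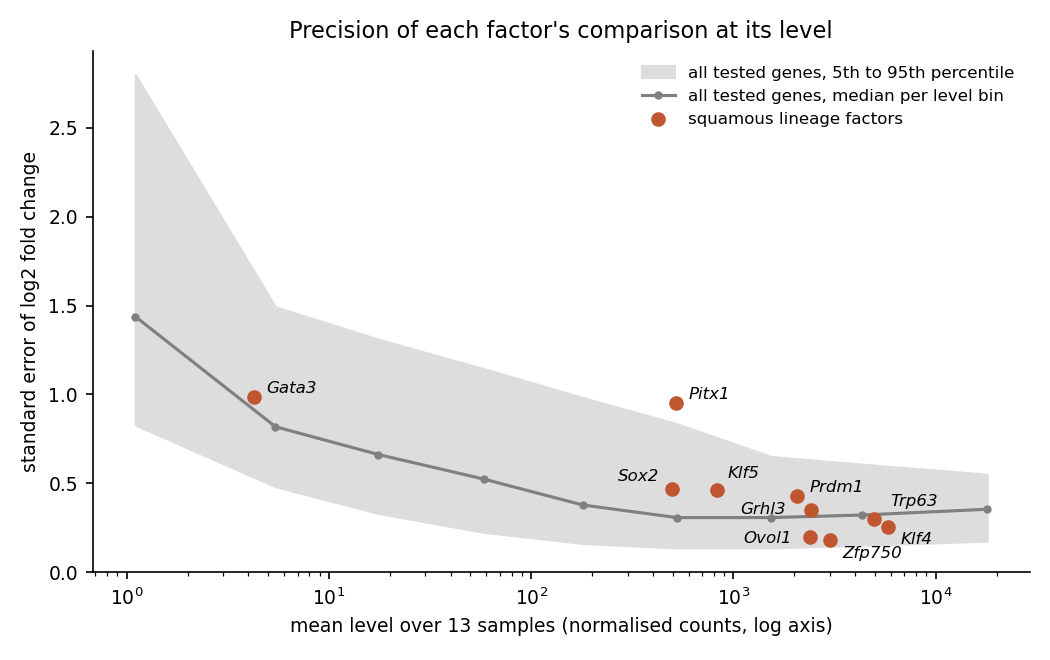
Standard error of the log2 fold change against mean level over 13 samples (log axis) for the 10 factors (orange), with the median (line) and the 5th to 95th percentile (grey) of all 17449 tested genes in bins of level. Zfp750 and Ovol1 lie below the line, and Pitx1, at 0.95, lies above the grey band.

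As a group, 7 of the 10 factors had a log2 fold change above 0 and 3 had one below. Their median was 0.11, and that of all genes tested in the authors' deposited table was 0.07. Their median absolute log2 fold change was 0.14, and that of all genes tested was 0.32. Among genes with a mean of at least 400, where errors are smaller, it was 0.063 for the 9 factors and 0.169 for all genes. For 5 factors (Trp63, Klf4, Grhl3, Ovol1 and Prdm1) the absolute value was under 0.1, where the sign carries no information. The 10 fitted levels summed to 22124 normalised counts in control and 22944 in H3K36M. The largest parts of this sum were Klf4 (5938 in control and 5683 in H3K36M) and Trp63 (4924 and 4994).

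Relatives of the factors in the same gene families had no call either. Of 60 listed relatives (p53, SOX, PITX, KLF, GRHL, OVOL, PRDM and GATA families), 50 were tested in the authors' deposited table. None was called (0 higher, 0 lower), and the median of their log2 fold changes was 0.22. At an unadjusted p below 0.05, 2 were higher, the genes Sox7 (log2 fold change 0.86, SE 0.39) and Prdm16 (0.81, SE 0.37), both named after their values were seen. Grhl1, which acts beside Grhl3 in the epidermis, had 3747 normalised counts in control and 3816 in H3K36M there, a log2 fold change of 0.03 (SE 0.14). Grhl2, a regulator of epithelial junctions, stood at −0.07 (SE 0.22). The 3 grainyhead genes were thus all well above detection, and no difference beyond the error was seen in any of them. Klf6 (log2 fold change −0.16, SE 0.41) and Klf3 (0.20, SE 0.32) had the highest mean counts, not per length, of the other KLF genes in the authors' deposited table.

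Of the relatives of Trp63, Trp53 had a mean of 437 normalised counts and a log2 fold change of 0.25 (SE 0.53) and Trp73 with 108 and 0.78 (SE 0.47) in the authors' deposited table. Sox6 (−0.09, SE 0.29) and Sox4 (0.13, SE 0.32) had the highest mean counts, not per length, of the other SOX genes. Sox1 and Sox3, the closest relatives of Sox2, had no reads. Ovol2 had a mean of only 36.5 normalised counts and a log2 fold change of 0.28 (SE 0.31), and Ovol3 had 1.23 (log2 fold change −0.75, SE 0.996) in the authors' deposited table. Prdm2 (0.02, SE 0.31) and Prdm4 (0.15, SE 0.13) had the highest mean counts among the other PRDM genes, and Gata2 (−0.00, SE 1.31) and Gata6 (0.64, SE 1.45), at means of 20.9 and 3.18, those among the other GATA genes.

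Among 34 other transcription factors of stratified epithelium, the authors' deposited table had 1 call, downward, which is 2.94% of those tested and near the 3.43% of all genes. Their median log2 fold change was 0.08. The called gene was Maf, a leucine zipper factor that acts in keratinocyte differentiation in human skin. It fell by 1.30 on the log2 scale (SE 0.27, adjusted p = 0.000112), from 1454 to 589 normalised counts. Of the others, 4 had an unadjusted p below 0.05 and are named for that reason: Pou2f3 (log2 fold change 0.52, SE 0.20), Sox7, Msx2 (−1.09, SE 0.38, adjusted p = 0.0943) and Id2 (−0.55, SE 0.27) in the authors' deposited table.

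Genes that the factors are known to act on were counted next. Of 30 genes of the basal layer with a known dependence on p63, the authors' deposited table had 2 lower and 0 higher (6.67% called, against 3.43% of all genes), and their median fold change was −0.05 on the log2 scale. These were Fras1, a basement membrane protein, which fell by 1.31 (SE 0.29, adjusted p = 0.000519), and Krt14, which fell by 0.87 (SE 0.26, adjusted p = 0.0292). Krt14 is also the gene whose promoter drives Cre here. Krt5, its partner keratin, named after its values were seen, had 26616 and 27301 normalised counts and a log2 fold change of 0.04 (SE 0.48) there.

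For late differentiation, the authors' deposited table had 4 higher and 1 lower of 41 genes tested (12.2% called, against 3.43% of all genes). Their median fold change was 0.02 on the log2 scale. A further 3 (Sprr2a1, Sprr2a2 and Sprr2a3, near-identical copies) carry no p-value there, as genes with outlying samples. Krt10, a suprabasal keratin of cornifying epithelia, fell by 1.31 (SE 0.36, adjusted p = 0.0115), from 8018 to 3240 normalised counts. Its pairing partner Krt1 rose from 58.8 to 1278 normalised counts, and the cornified envelope gene Sprr2d rose from 12.5 to 1477 in that deposited table. Sprr2e, a close copy of Sprr2d that can share its reads, rose from 0.860 to 84.8. The fifth called gene, the protease gene Klk7, outside the rule for named genes, rose by 1.49 (SE 0.42, adjusted p = 0.0132). Called genes of this list thus moved both ways. The difference in fold change between a factor and a gene of these lists was not tested.

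**Figure D4:**
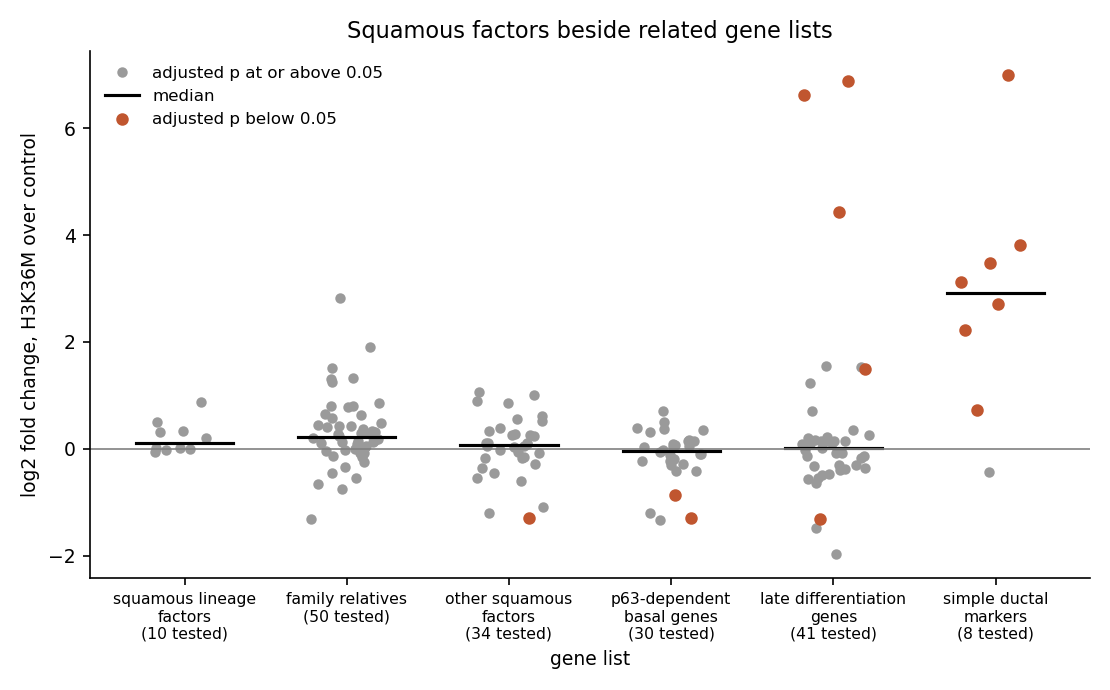
Log2 fold change (H3K36M over control) of each tested gene in 6 lists, with genes past an adjusted p of 0.05 in orange and a line at each median. The 10 squamous factors lie between −0.06 and 0.88 with no orange point, the late differentiation genes reach 6.89, and the simple ductal markers have a median of 2.92.

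OVOL and GRHL factors are known to hold epithelial cells away from the mesenchymal state. Of 14 genes of epithelial-mesenchymal transition, the authors' deposited table had 1 higher and 0 lower (7.14% called, against 3.43% of all genes, with 1 gene making up the count), and their median fold change was 0.16 on the log2 scale. The gene was Epcam, an adhesion protein of simple and proliferating epithelia, which rose by 0.72 (SE 0.20, adjusted p = 0.0109), from 577 to 952 normalised counts. Epcam is also counted among the simple ductal markers described below. Over the list, 9 of 14 had a log2 fold change above 0, and the values ran from −1.60 (SE 0.99) for Snai3 to 1.75 (SE 1.51) for Snai1 there, the 2 ends named after their values were seen. The calls of Maf, Fras1, Krt14, Krt10, Klk7 and Epcam were lost when the Wald statistic was read against a t distribution with 11 degrees of freedom. That setting also adjusted over all 19734 genes with a p-value. The calls of Krt1, Sprr2d and Sprr2e held.

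Stratified keratinocyte markers were abundant in both groups of this tissue, which the labels call tongue epithelia. Of 10 such markers, Krt14 alone was called in the authors' deposited table, downward. The median fold change was −0.02 on the log2 scale, and the summed level was 2205320 normalised counts in control and 1886180 in H3K36M. Over all genes the summed level was 16490800 in control and 14928600 in H3K36M. The log2 ratio of the sums was −0.23 for the stratified markers and −0.14 for all genes. Of all genes tested, 3.43% were called, the share to set beside the deposited counts of this paragraph. Simple ductal markers, for which 7 of 8 were higher, summed to 1689 and 4331, and salivary secretory markers, 3 of 5 higher and 1 set aside, to 13.9 and 532. With the t reference described above, these counts were 3 of the ductal and 2 of the salivary markers. Skeletal muscle markers, with 0 of 8 called, summed to 80153 and 22080 in that deposited table, with −1.86 as the median of their log2 fold changes. The part of these shifts in the values of the 10 factors was not tested. The other lists mark cell types that may also express a factor, and their sums are levels of RNA, not shares of cells. T and innate lymphoid markers, beside Gata3, summed to 262 and 310 with 0 of 7 called, and B and plasma cell markers, beside Prdm1, to 25.3 and 58.8 with 0 of 4 called and 1 set aside. Most of the T and innate lymphoid sums came from Thy1 (190 in control and 238 in H3K36M). The B and plasma cell sums include the gene set aside, Jchain, which went from 4.31 in control to 37.0 in H3K36M. Of the 4 tested markers of that list, 1 had a log2 fold change above 0. Taste bud markers, beside Sox2, summed to 215 and 437 with 1 of 7 higher (Krt8, which is also counted among the ductal markers), and Schwann cell markers to 1209 and 1041 with 0 of 6. Most of the taste bud sums came from Pou2f3 (175 in control and 250 in H3K36M) and Krt8 (17.8 and 156). Pou2f3 is also counted among the other squamous factors. The taste bud sums therefore say little about the remaining markers of that list. Sebaceous markers, beside Prdm1, summed to 1795 and 3057 with 2 of 5 higher (Krt79 and Cidea), and fibroblast markers to 14353 and 13104 with 0 of 6 in the authors' deposited table. Most of the fibroblast sums came from Dcn (11827 in control and 10282 in H3K36M). Of the 6 fibroblast markers, 3 had a log2 fold change above 0 in that deposited table. No marker of these lists with a row there was at 0 reads.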

How the data were processed

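RNA of 13 tongue samples was sequenced as polyA, strand-preserving libraries with 75-base single reads, per the labels' protocols. STAR and DESeq2, with the build GRCm38 (mm10), are given per the submitters' processing notes, with no versions. The sources used here do not give the annotation or the read counter. The authors' deposited table gives a mean and 2 fitted group levels in normalised counts, a signal that the authors scaled for depth. It also gives the authors' log2 fold change with its standard error, the Wald score and the deposited p-value and adjusted p-value. In all 19909 genes with reads, the mean equalled the levels weighted by 7 and 6 samples (relative tolerance 1e-06), and a positive fold change means a higher fitted level in H3K36M. The authors' tables of gene ontology terms were not used here.

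No count test could be run on group levels, so the authors' adjusted p below 0.05 was the call. It was present for 17449 genes, and not for 7348 without reads or of low mean or 175 set aside as outliers. Intervals are the fold change ± 1.96 SE. The implied coefficient of variation solves the variance of the fold change for a negative binomial dispersion with all size factors at 1, and intervals of levels use it, so both are approximate. The labels do not tie the 13 samples to animals, and the p-values then measure only how far these samples spread, which may be technical. Depth per sample is not known, and the summed mean was 15769800 normalised counts per library.

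The factors and all gene lists were chosen with earlier results of these data known. Besides the factors, each list's named genes were up to 4 called ones with the smallest adjusted p or, with none called, the 2 of highest mean. Some genes that this rule names are not reported here. Flg, Trac, Igha and Ighm of the lists had no row under these names. Exon lengths and positions are from GENCODE M21 on GRCm38, promoter sequences from RefSeq (GRCm38.p6). Calculations used Python 3.11.15, scipy 1.17.1 and pandas 2.3.3 and were tested on simulated data. Alternatives were adjustment over every gene with a p-value, a minimum mean of 50, a t reference with 11 degrees of freedom, centring or scaling of the statistic, inclusion of the genes set aside, and thresholds of 0.01 and 0.1. The t reference was likewise adjusted over every gene with a p-value.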

Additional observations from a re-analysis of the deposited data

How the results depend on the processing

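None of the 10 squamous factors was called under any of 9 alternatives (8 planned, and 1, centring on the median of the stratified markers, chosen after seeing the data). Their smallest adjusted p was 0.887, for Zfp750 with the statistic centred and scaled. The smallest unadjusted p of a factor in the deposited Wald test was 0.259, for Zfp750. Alternatives that keep the deposited p-values, or raise them as the t reference does, therefore could not have called a factor. Signs differed from the deposited ones only for Trp63 and Prdm1 with the fold change centred on the median gene or with the statistic centred and scaled, and for Ovol1 with centring on the stratified markers. At a mean of at least 50, Gata3 dropped out and 129 of all genes were higher. With the t reference 99 genes were higher and 63 lower, and calls fell to 0 for the other squamous factors, the p63-dependent genes, the lower late differentiation genes and the epithelial-mesenchymal genes. With the statistic centred and scaled 374 genes were higher and 418 lower, with 2 other squamous factors and 3 late differentiation genes lower. With the fold change centred on the median gene, a shift of 0.07, 287 genes were higher and 339 lower against 322 and 277 as deposited, and 2 late differentiation genes were lower. At a threshold of 0.01, 179 genes, 1 p63-dependent and 0 late differentiation genes were lower, and 0 epithelial-mesenchymal genes were higher. The call of Cidea was lost with the t reference, at 0.01 and with centring on the median gene, those of Krt8, Muc1 and Aqp5 with the t reference (ductal markers 3 in place of 7, salivary 2 in place of 3), and Msx2 was called with the statistic centred and scaled and at 0.1. At 0.1, 2 other squamous factors and 2 late differentiation genes were lower. No paired analysis was possible because the table holds no values of single samples, and leaving out single replicates could not be run for the same reason. Gata3 had the lowest summed normalised counts of the 10 factors, 24.9 in control and 30.2 in H3K36M. How far depth and how far spread between libraries set its error was not tested.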
